A study of Danio rerio with 6 samples.

Results

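The mitochondrial chromosome of zebrafish carries 37 genes, all of them listed in the gene abundance tables of this series under the reference name chrM, out of 32520 genes in all. They were taken by that reference name and split by length and product into 13 protein genes, 2 ribosomal RNA genes and 22 transfer RNA genes. Each of 6 libraries was made from a pool of 30 whole, untreated larvae aged 5 days post fertilization. The labels put 3 libraries in (stim2a;stim2b)−/−, mutant in both copies of 2 genes for STIM2 calcium sensors of the endoplasmic reticulum, and 3 in (stim2a;stim2b)+/+, wild type at both. The sources used here give neither the mutant alleles nor the clutches behind the pools, and p-values here cover the spread between the pools alone. The RNA of the targeted genes runs against the labels. The gene stim2a stood at 1.31, 1.41 and 1.199 TPM in the −/− pools, against 0.329, 0.252 and 0.403 TPM in the +/+ pools, and stim2b at 1.52, 1.34 and 1.85 TPM (−/−) against 0.542, 0.475 and 0.722 TPM (+/+). The names of the deposited tables of the 3 −/− libraries hold the letters wt, and those of the 3 +/+ libraries the letters ab. Read as wild type, the letters wt also go against the labels. The letters ab were not interpreted here, so the names alone do not show which labels hold. Below, −/− pools and +/+ pools are the libraries so labelled, and every direction is one between labels. TPM is the share of a gene among all transcripts, corrected for gene length and scaled to 1000000 per library.

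In vertebrates both strands of the mitochondrial chromosome are copied into long precursor RNAs. Enzymes cut these at the tRNAs that lie between the other genes, which frees the messages and the rRNAs. The protein genes encode core subunits of respiratory complexes I, III and IV and of the ATP synthase (complex V), while all other subunits come from the nucleus. Most mitochondrial messages carry poly(A) tails and were therefore open to the poly(A) selection used for these libraries. Whether this holds for the message mt-nd6 was not tested here. Mature tRNAs carry no such tail, and mitochondrial rRNAs carry very short ones. In larvae, tissues rich in mitochondria such as muscle, heart and ionocytes are known for high levels of this RNA.

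The 37 genes lie closely packed between positions 951 and 16596 of chrM. On the plus strand of the tables lie 28 genes, among them 12 protein genes, both rRNAs and 14 tRNAs. On the minus strand lie mt-nd6 and 8 tRNAs. Several neighbours share bases. The end of mt-atp8 (8894 to 9058) overlaps the start of mt-atp6 (9052 to 9735), which in turn shares its last base with mt-co3 (9735 to 10520), and mt-nd4l (11009 to 11305) overlaps mt-nd4 (11299 to 12679). The tRNA genes are 68 to 77 bases long, about the length of one 75-base read, so reads counted there can also reach into a neighbouring gene. No sequence of these genes was used here.

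Levels spanned more than 4 orders of magnitude along one chromosome. The messages of cytochrome c oxidase (complex IV), the enzyme that hands electrons to oxygen, were among the highest. The subunit III gene mt-co3 stood at 14319.9, 14486 and 13108 TPM in the −/− pools, against 15807, 15052 and 16018 TPM in the +/+ pools. Averaged over the 6 libraries it had rank 3 among all genes, and 5 of the 10 most abundant genes were mitochondrial. Among these 5 was mt-atp6 at rank 7, whose average joins the high and low values given below. The messages mt-co3, mt-co2 and mt-co1 averaged 14798, 13058 and 12996 TPM over all libraries, with ranges that overlapped. In every library mt-co2 lay below mt-co3, while mt-co1 lay below mt-co2 in 3 of 6. Next came mt-cyb, the only mitochondrial subunit of complex III, at 6374 to 9842 TPM, and mt-atp8, a small subunit of the ATP synthase, at 5428 to 7747 TPM. Ranges of mt-cyb and mt-atp8 overlapped, and mt-atp8 was the lower of the pair in 5 of 6 libraries.

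The messages of complex I, which takes electrons from NADH, were lower and stepped down from mt-nd1 to mt-nd5. Averages over the 6 libraries were 5290 TPM for mt-nd1 and 3527 TPM for mt-nd2, whose ranges did not overlap. They were 3190 TPM for mt-nd4, 2352 TPM for mt-nd4l and 2159 TPM for mt-nd3, each overlapping the range of the next, and 1456 TPM for mt-nd5, whose range lay below that of mt-nd3. The minus-strand message mt-nd6 averaged only 104 TPM and ranked below tRNA-Leu1, tRNA-Arg, tRNA-Met and tRNA-Ser1. It lies between the plus-strand genes mt-nd5 and mt-cyb, both far higher. As a share of mt-cyb, mt-nd6 amounted to 1.28%, 1.38% and 1.63% in the −/− pools and to 1.17%, 1.12% and 1.19% in the +/+ pools. This ratio was not planned beforehand. The ratio of mt-nd6 to its other neighbour, mt-nd5, overlapped between the labels. The kit marks strand, but the sources used here do not say whether counting used it. Reads of a minus-strand gene and of RNA from the opposite strand can therefore not be told apart. How much of the mt-nd6 RNA passed the poly(A) selection was not tested, and its TPM covers only the part that did.

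The rRNAs, the RNA cores of the mitochondrial ribosome, lay below every plus-strand message. The large-subunit gene mt-rnr2 averaged 619 TPM and the small-subunit gene mt-rnr1 averaged 434 TPM, and mt-rnr1 was the lower in 6 of 6 libraries. Signal over the tRNA genes ranged from 381 TPM on average for tRNA-Leu1, which lies between mt-rnr2 and mt-nd1, to 0.642 TPM for tRNA-Leu2, which lies between tRNA-Ser2 and mt-nd5. High tRNA values came from genes in different places: tRNA-Arg between mt-nd3 and mt-nd4l averaged 240.2 TPM, tRNA-Met before mt-nd2 149 TPM, and the minus-strand tRNA-Ser1 after mt-co1 119.8 TPM. Depth behind the lowest values was small, since coverage times length gave 19 to 362 aligned bases per library for tRNA-Leu2 and 398 to 1906 for tRNA-Phe, against 50051 to 170331 for tRNA-Leu1.

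**Figure D1:**
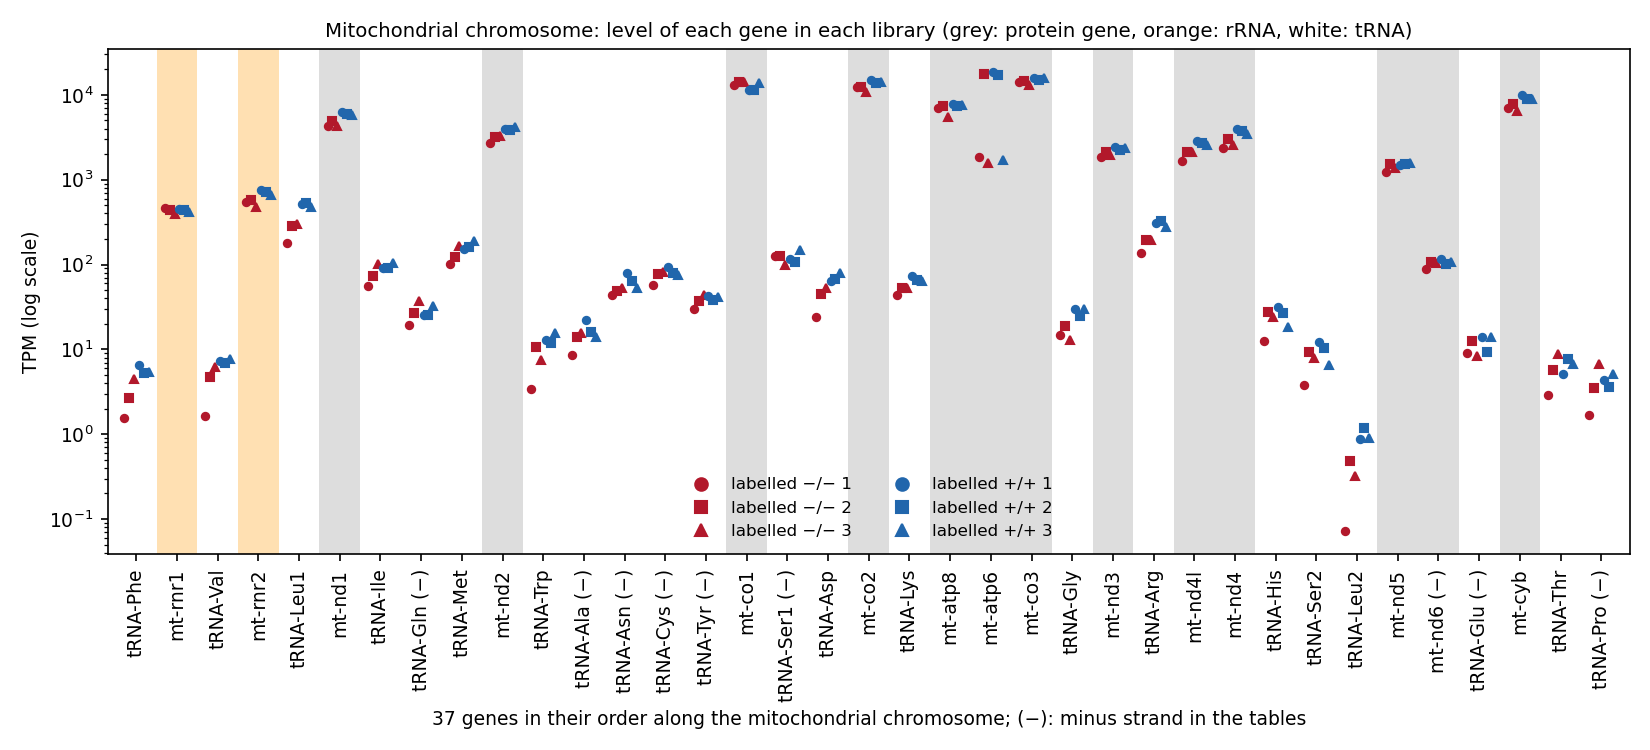
TPM (log scale) of each of the 37 genes in each library, with genes in their order along the mitochondrial chromosome; red, −/− pools, and blue, +/+ pools, with a marker for each replicate number. The 13 protein genes on grey stand above the tRNAs on white, except mt-nd6 at 89.1 to 115 TPM, and mt-atp6 splits into values near 1559 to 1849 TPM and 17174 to 18499 TPM.

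One message departed from this order within both labels. The gene mt-atp6, which encodes the proton channel subunit of the ATP synthase, was listed at 1849, 17619 and 1559 TPM in the −/− pools, against 18499, 17174 and 1694 TPM in the +/+ pools. The −/− pool 2 and +/+ pools 1 and 2 were high, the other three libraries were low, and the groups overlapped fully. Its highest value was 11.9 times its lowest, whereas this ratio lay between 1.22 and 1.72 for the other 12 protein genes. The 2 genes that adjoin mt-atp6 did not share the split. The ratio of mt-atp6 to mt-co3 was 0.129, 1.22 and 0.119 in the −/− pools and 1.17, 1.14 and 0.106 in the +/+ pools, but the ratio of mt-atp8 to mt-co3 stayed at 0.488, 0.51 and 0.414 (−/−) against 0.49, 0.489 and 0.479 (+/+). Of the 171 genes with a mean of at least 1000 TPM, mt-atp6 was the only one, by a limit chosen after its values were seen, whose highest library exceeded its lowest by over 5 times. In the authors' deposited table mt-atp6 has a log2 fold change with a standard error of 0.387, against 0.0857 to 0.149 for the other 12 protein genes, and its p-value is given as NA. The source of the split was not tested, and the mt-atp6 values are not read as a difference between larvae.

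**Figure D2:**
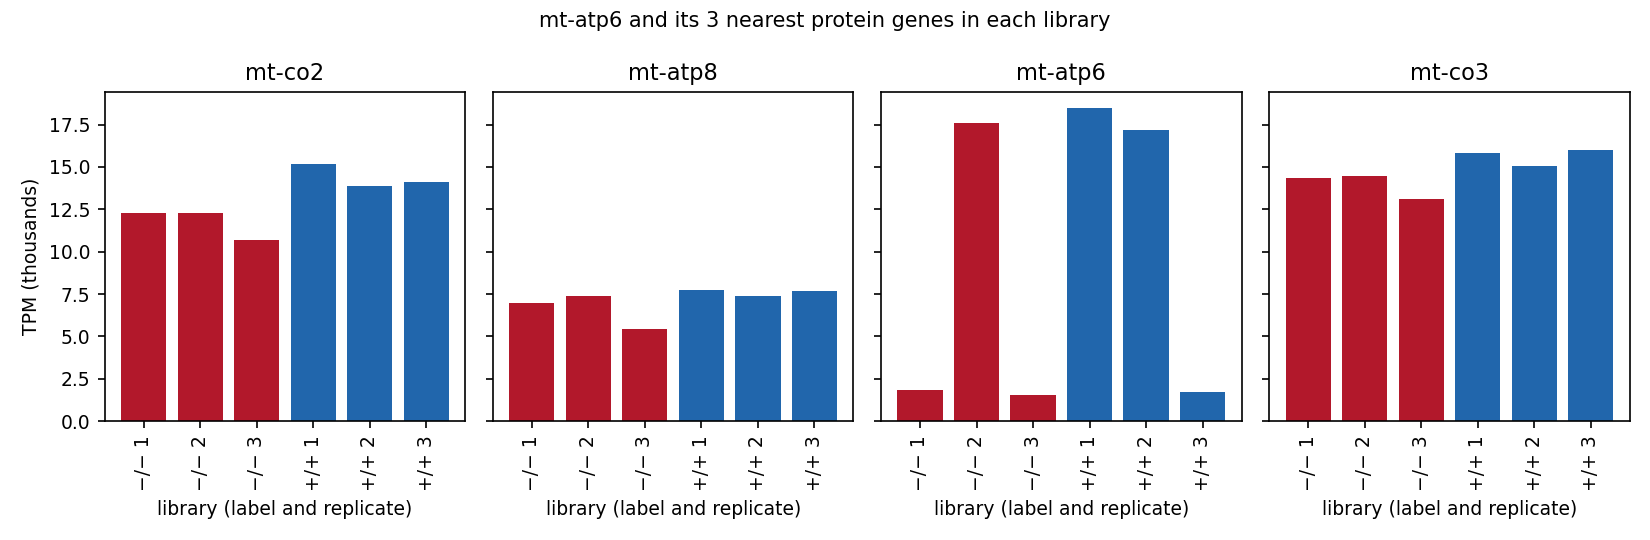
TPM (axis in units of 1000) of mt-atp6 and its nearest protein genes mt-co2, mt-atp8 and mt-co3, one bar per library, −/− pools in red and +/+ pools in blue. The bars of mt-atp6 stand at 1849 and 1559 TPM in 2 −/− pools and at 1694 TPM in 1 +/+ pool, while those of the neighbours vary little.

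The first comparison asked whether the mitochondrial chromosome held a different share of all RNA under the 2 labels. All 37 genes together made up 7.17%, 9.29% and 6.93% of TPM in the −/− pools, against 10.27%, 9.68% and 8.498% in the +/+ pools. These groups overlapped, with means of 7.797% ± 1.298 and 9.48% ± 0.900 (SD, n = 3 each; exact two-sided permutation test p = 0.2, where 3 against 3 cannot go below 0.1). With mt-atp6 left out, a choice made after seeing its values, the remaining 36 genes held 6.98%, 7.53% and 6.78% in the −/− pools, against 8.42%, 7.96% and 8.33% in the +/+ pools. The groups then did not overlap, at 7.096% ± 0.388 and 8.24% ± 0.242 (SD, n = 3 each; exact permutation p = 0.1), a ratio of 0.862. Counted as aligned bases, the 37 genes took 4.39%, 5.57% and 4.15% of bases in the −/− pools and 6.399%, 6.03% and 5.23% in the +/+ pools. A share of TPM falls when other genes rise, and in whole larvae fewer mitochondria-rich cells and less mitochondrial RNA per cell cannot be told apart.

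The 13 protein genes made up nearly all of this RNA. They held 6.98%, 9.07% and 6.72% of TPM in the −/− pools and 9.97%, 9.39% and 8.22% in the +/+ pools (exact permutation p = 0.2). Both rRNAs together held 0.1002%, 0.101% and 0.0872% in the −/− pools, against 0.120%, 0.115% and 0.108% in the +/+ pools, and the tRNA genes 0.0873%, 0.120% and 0.128% (−/−) against 0.171%, 0.168% and 0.167% (+/+). The rRNA and tRNA shares did not overlap between the labels (exact permutation p = 0.1 for each, the smallest possible), with ratios of 0.8399 and 0.663. The −/− pool 1 was lowest in tRNA share, while the tRNA shares of the 3 +/+ pools lay close together.

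**Figure D3:**
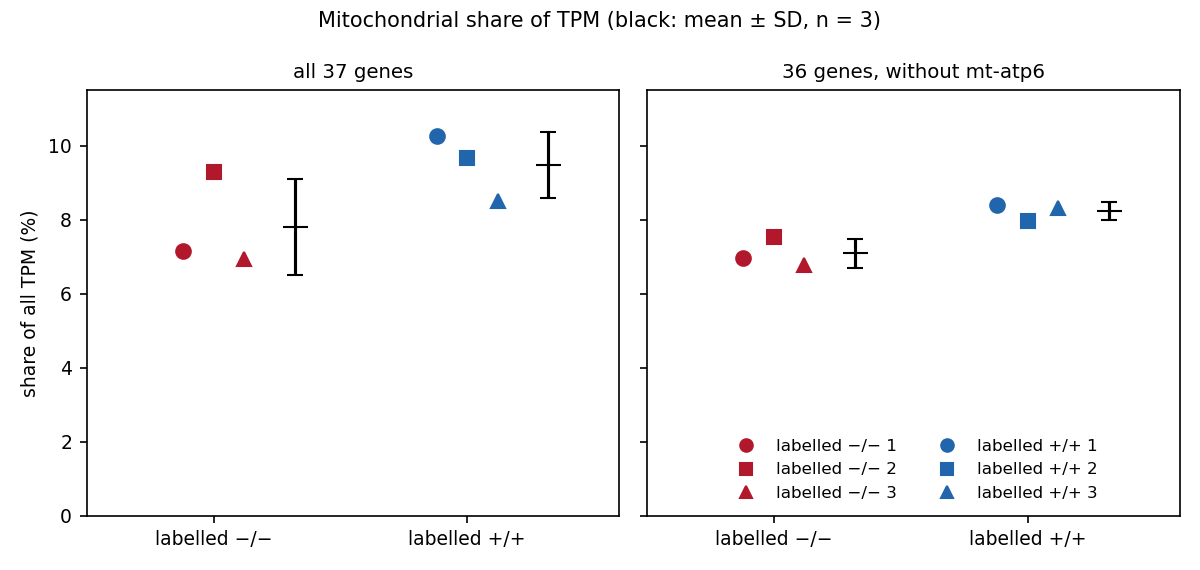
Share of all TPM, in percent, held by the mitochondrial chromosome in each library, for 37 genes (left) and for 36 genes without mt-atp6 (right); points are libraries, −/− pools left of +/+ pools, and black bars are mean ± SD (n = 3). Without mt-atp6 the −/− pools lie between 6.78% and 7.53% and the +/+ pools between 7.96% and 8.42%.

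Gene by gene, most mitochondrial transcripts were lower in the −/− pools. In the limma fit of all 20330 tested genes on log2(TPM + 0.5), 14 of the 36 tested mitochondrial genes were called lower and 0 higher at an adjusted p under 0.05. Over all tested genes 8.76% were called lower and 30.8% higher at the same adjusted threshold, 39.6% in all. At an unadjusted p under 0.05 the member counts were 18 and 0. The share of all tested genes at an unadjusted p was not computed, for these or the later unadjusted counts. The log2 fold change was negative for 35 of 36, with a median of −0.39 beside a median of 0.22 over all tested genes. The groups did not overlap for 18 tested members, all lower in the −/− pools, whereas 16.3% of tested genes showed that and 39.5% the reverse. With median-ratio scaling of TPM, which brings the median of all genes to 0.00, 22 members were called lower and 0 higher, beside 22.4% of tested genes lower and 22% higher. With replicate number as a block 19 were called lower, among them all 14 and 5 further tRNA genes, and mt-co1 was called higher (adjusted p = 0.033 by limma), beside 13.3% lower and 45.6% higher over all genes. Most adjusted calls, here and over all genes, were lost without either of 2 libraries. Without +/+ pool 1 limma called 0 members (14 lower at an unadjusted p under 0.05), and without +/+ pool 2 it called tRNA-Gly alone (16 unadjusted), and over all genes it called 891 and 657 in place of 8046. In both cases all 14 members kept a negative log2 fold change. Single calls were also lost without −/− pool 1 (tRNA-Phe, mt-co2, mt-nd3 and mt-cyb), −/− pool 2 (tRNA-Phe), −/− pool 3 (mt-co2 and mt-nd3) and +/+ pool 3 (tRNA-Asp and mt-nd3). They were lost as well without the expression filter (tRNA-Phe, tRNA-Asp, mt-co2 and mt-nd3), without the trend (mt-co2 and mt-nd3) and with quantile scaling (mt-nd2 and mt-nd3).

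**Figure D4:**
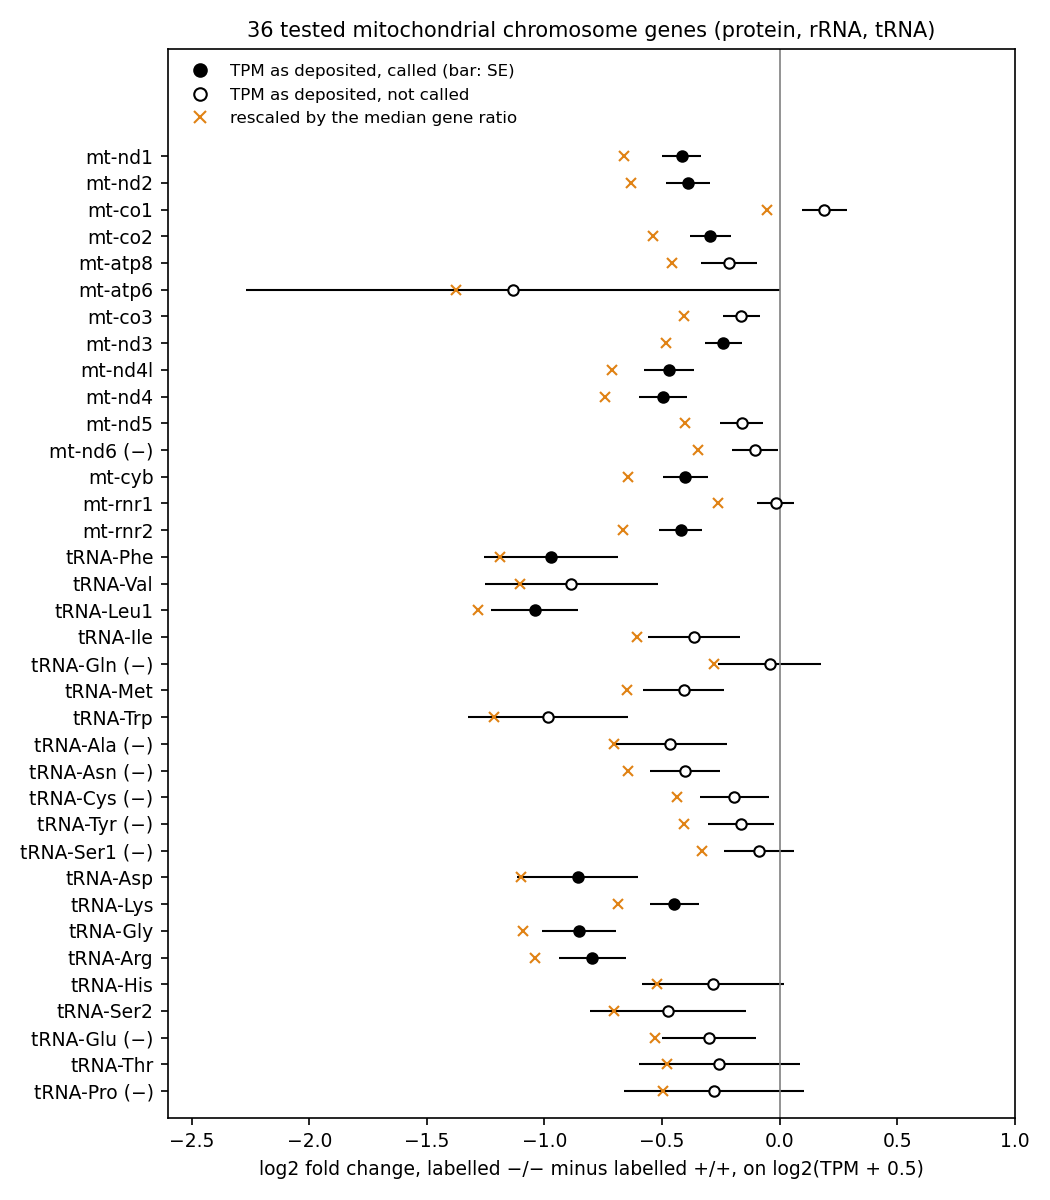
Log2 fold change, −/− minus +/+ on log2(TPM + 0.5), of the 36 tested genes by class (protein genes, rRNAs, tRNAs); filled circles passed an adjusted p under 0.05 by limma, open circles did not, bars are standard errors and orange crosses are values after median-ratio scaling. Points lie left of 0 except that of mt-co1 at 0.19, whose value after rescaling is −0.053, and the bar of mt-atp6 is the longest, with a standard error of 1.14.

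Of the 7 complex I messages, 5 were called lower in the −/− pools, beside 8.76% of all tested genes: mt-nd1, mt-nd2, mt-nd3, mt-nd4l and mt-nd4. The log2 fold change was negative for all 7. After median-ratio scaling all 7 were called lower, beside 22.4% of all tested genes. All 7 encode membrane subunits of the proton-pumping arm of the complex. The message mt-nd4 stood at 2378, 2994 and 2578 TPM in the −/− pools, against 3976, 3742 and 3472 TPM in the +/+ pools. Its groups did not overlap, and its log2 fold change was −0.50 ± 0.10 (SE, adjusted p = 0.015 by limma). Its bicistronic partner mt-nd4l, translated from the same message in vertebrates, stood at 1678, 2141 and 2113 TPM (−/−) against 2884, 2722 and 2571 TPM (+/+; log2 fold change −0.47 ± 0.11, adjusted p = 0.0184). The ratio of mt-nd4l to mt-nd4 was 0.706, 0.715 and 0.8197 in the −/− pools and 0.725, 0.727 and 0.741 in the +/+ pools, with overlap between the labels.

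The message mt-nd1 stood at 4332, 4939 and 4332 TPM in the −/− pools and at 6357, 5946 and 5833 TPM in the +/+ pools, again without overlap (−0.42 ± 0.08, adjusted p = 0.0142 by limma). For mt-nd2 the values were 2695, 3217 and 3268 TPM (−/−) against 3921, 3897 and 4166 TPM (+/+, adjusted p = 0.0197). The smallest of the called changes was that of mt-nd3, at 1865, 2128 and 1948 TPM (−/−) against 2435, 2227 and 2349.7 TPM (+/+; log2 fold change −0.24 ± 0.08, adjusted p = 0.0434). The remaining subunit messages overlapped between the labels. These were mt-nd5, at 1232, 1542 and 1359 TPM (−/−) against 1500.3, 1516 and 1586 TPM (+/+, adjusted p = 0.186), and the minus-strand message mt-nd6, at 89.1, 108 and 104 TPM (−/−) against 115, 101 and 107 TPM (+/+, adjusted p = 0.393).

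In complex III mt-cyb, the cytochrome b that carries electrons across the inner membrane, fell to 6945, 7847 and 6374 TPM in the −/− pools, against 9842, 9018 and 9005 TPM in the +/+ pools (log2 fold change −0.40 ± 0.09, adjusted p = 0.0197 by limma). In complex IV the 3 messages differed from one another. The copper-binding subunit gene mt-co2 fell to 12260.1, 12258 and 10702 TPM in the −/− pools, against 15155, 13876 and 14099 TPM in the +/+ pools (−0.29 ± 0.09, adjusted p = 0.0319). The values of mt-co3 given above did not overlap either, but its log2 fold change of −0.16 ± 0.08 did not pass (adjusted p = 0.122).

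The catalytic subunit gene mt-co1 was the exception in direction. It stood at 13148, 14024 and 14317 TPM in the −/− pools, against 11505, 11315 and 13664 TPM in the +/+ pools, where pool 3 overlapped the other group. Its log2 fold change was 0.19 ± 0.09 with TPM as deposited (adjusted p = 0.137 by limma) and −0.053 after median-ratio scaling (adjusted p = 0.771). It was called higher with quantile scaling (0.34, adjusted p = 0.012), with the replicate block, and without +/+ pool 3 (0.28, adjusted p = 0.0405). Within each library, the ratio of mt-co1 to mt-co2 was 1.07, 1.14 and 1.34 in the −/− pools, against 0.759, 0.815 and 0.969 in the +/+ pools, a comparison that no rescaling of a library changes and that was chosen after the values were seen. In complex V mt-atp8 stood at 6990.3, 7388 and 5428 TPM (−/−) against 7747, 7362 and 7671 TPM (+/+), with overlap (adjusted p = 0.171), and mt-atp6 had a log2 fold change of −1.13 ± 1.14 (adjusted p = 0.433) with the split values given above.

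The rRNAs parted company. The large-subunit rRNA gene mt-rnr2 fell to 543, 571 and 474 TPM in the −/− pools, against 754, 712 and 658 TPM in the +/+ pools (−0.42 ± 0.09, adjusted p = 0.0174 by limma). Its neighbour mt-rnr1, copied just before it, stood at 459, 438 and 399 TPM (−/−) against 451, 439 and 419 TPM (+/+), with a log2 fold change of −0.02 ± 0.08 (adjusted p = 0.869). The ratio of mt-rnr2 to mt-rnr1 was 1.18, 1.31 and 1.19 in the −/− pools, against 1.67, 1.62 and 1.57 in the +/+ pools, a ratio also chosen after the values were seen. Because rRNAs carry short tails, these values reflect the part of each rRNA that passed poly(A) selection.

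Of 21 tested tRNA genes, 6 were lower in the −/− pools and 0 higher, beside the 8.76% and 30.8% of all tested genes. At an unadjusted p under 0.05 the counts were 10 and 0, with no all-gene share computed. The signal over tRNA-Leu1 fell to 177, 282 and 301 TPM in the −/− pools, against 521, 532 and 472 TPM in the +/+ pools (log2 fold change −1.04 ± 0.19, adjusted p = 0.0115 by limma). This fall was larger than that of the adjoining mt-nd1: tRNA-Leu1 amounted to 4.09%, 5.70% and 6.94% of mt-nd1 in the −/− pools and to 8.19%, 8.95% and 8.09% in the +/+ pools. The signal over tRNA-Arg fell to 138, 197 and 196 TPM (−/−) against 308, 325 and 278 TPM (+/+; log2 fold change −0.80 ± 0.14, adjusted p = 0.0118). For tRNA-Gly, between mt-co3 and mt-nd3, the values were 14.9, 19.1 and 12.7 TPM (−/−) against 30.1, 24.7 and 29.9 TPM (+/+; log2 fold change −0.85 ± 0.16, adjusted p = 0.0123).

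The other called tRNA genes were tRNA-Lys (−0.45), tRNA-Asp (−0.86) and tRNA-Phe (−0.97), with adjusted p of 0.0191, 0.0343 and 0.0321 by limma. All 6 lie on the plus strand, where 13 of 14 tRNA genes were tested, with a median log2 fold change of −0.80. On the minus strand 0 of 8 were called in the same fit (1, tRNA-Asn, at an unadjusted p under 0.05), with a median of −0.24. After median-ratio scaling 10 of the 13 plus-strand and 2 of the 8 minus-strand tRNA genes were called lower, beside 22.4% of all tested genes. Minus-strand genes held 33.7%, 28.9% and 26.8% of tRNA TPM in the −/− pools, against 23.1%, 20.3% and 23.1% in the +/+ pools. These shares did not overlap, and they were chosen after the values were seen. The plus-strand genes tRNA-Leu1 and tRNA-Arg together averaged 38.2% of tRNA TPM in the −/− pools and 48.2% in the +/+ pools. A lower share of these 2 genes by itself raises the minus-strand share. The 2 genes held 38.7% of tRNA TPM in −/− pool 3 and 48.4% in +/+ pool 1. With them left out of the sum, the minus-strand share of −/− pool 3 lay below that of +/+ pool 1. The minus-strand shares then overlapped between the labels. The gene tRNA-Leu2 reached 1 TPM in too few libraries to be tested. Its TPM was 0.0721, 0.486 and 0.321 in the −/− pools and 0.868, 1.19 and 0.911 in the +/+ pools.

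The balance between strands was also measured over messages, where mt-nd6 alone stands for the minus strand, with the limits given above. The log2 ratio of mt-nd6 to the summed TPM of the other 12 protein genes averaged −9.55 ± 0.195 in the −/− pools and −9.73 ± 0.140 in the +/+ pools (SD, n = 3 each; exact two-sided permutation p = 0.3). Without mt-atp6 it was −9.42 ± 0.138 (−/−) against −9.52 ± 0.0575 (+/+; exact permutation p = 0.4). The groups overlapped in both cases. With equal numbers as pairs, a pairing that no label names, the first ratio was higher in the −/− pool of 3 of 3 pairs. The exact sign-flip permutation p was 0.25, the smallest possible, and without mt-atp6 this p was 0.5.

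A further comparison took each message as a share of the TPM of the protein genes, which does not depend on how much mitochondrial RNA a library held. Among all 13, the shares of 1 gene, mt-nd4, did not overlap between labels, but mt-atp6 held 2.65%, 19.4% and 2.32% of the sum in the −/− pools against 18.5%, 18.3% and 2.06% in the +/+ pools and so moved every other share. Among the 12 without mt-atp6, the shares of 4 genes did not overlap. The share of mt-co1 was 19.4%, 19.2% and 21.8% in the −/− pools, against 14.2%, 14.7% and 17.0% in the +/+ pools. Those of mt-nd1 averaged 6.58% ± 0.192 in the −/− pools and 7.60% ± 0.315 in the +/+ pools (SD, n = 3 each). Those of mt-nd4 averaged 3.84% ± 0.308 (−/−) and 4.69% ± 0.331 (+/+), and those of mt-cyb 10.22% ± 0.513 (−/−) and 11.7% ± 0.470 (+/+). By exact two-sided permutation p was 0.1 for each of these 4, its smallest value, and 0.3 after Benjamini-Hochberg adjustment over the 12, so none passed. Shares of the other 8 overlapped. A higher share of mt-co1 by itself lowers the shares of the other genes, so these 4 are not separate results.

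**Figure D5:**
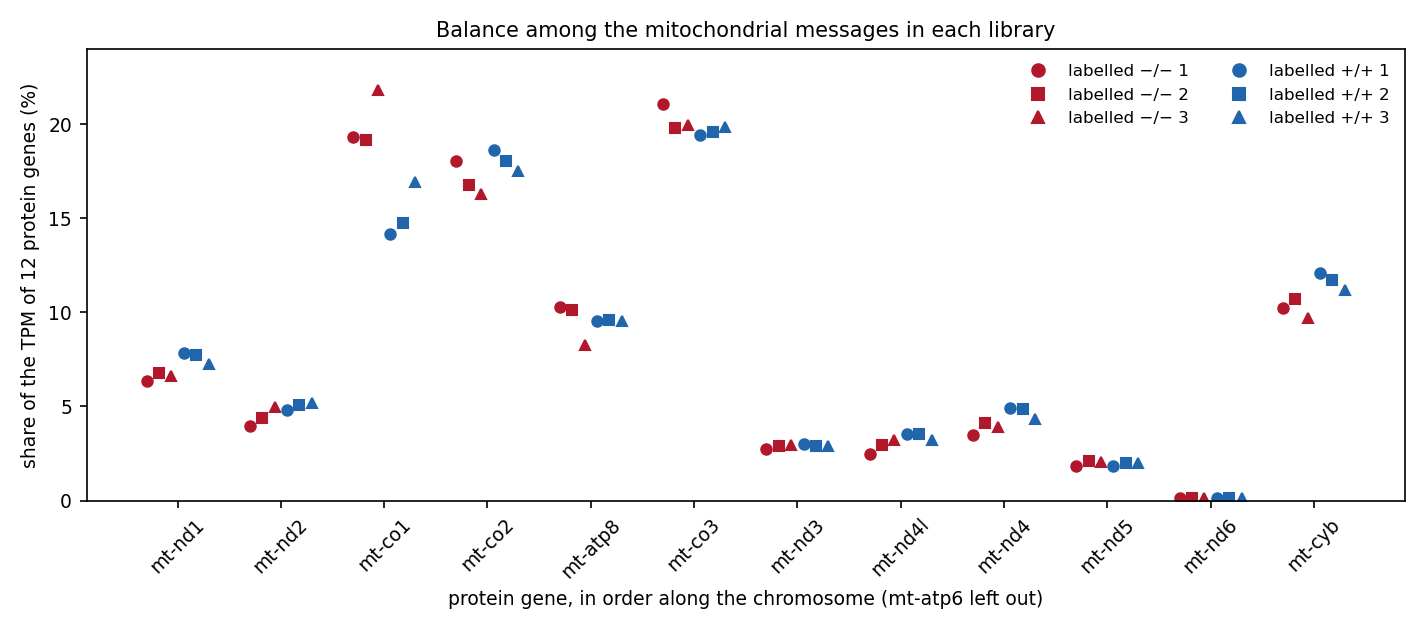
Share, in percent, of each of 12 protein genes (mt-atp6 left out) in the summed TPM of the 12, in each library, with genes in chromosome order, −/− pools in red left of +/+ pools in blue. Points of mt-co1 lie between 19.2% and 21.8% under −/− and between 14.2% and 17.0% under +/+, and those of mt-cyb lie lower under −/−.

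The authors' deposited table, whose direction is not stated, gives all 37 genes a positive log2 fold change, and gives stim2a −1.73 and stim2b −1.19. The opposite signs of the mitochondrial genes and the targeted genes match those in the TPM values, where stim2a and stim2b were higher and nearly all mitochondrial genes lower in the −/− pools. In the authors' deposited table the adjusted p lies under 0.05 for 17 of the 36 mitochondrial genes that have one, namely 9 protein genes, 7 tRNA genes and mt-rnr2. The shares of all its genes that pass or are positive were not computed. Whether these counts are unusual there can therefore not be read. The gene tRNA-Leu1 has the value 1.15 ± 0.18 (SE) and mt-co1 0.003 ± 0.086 (SE) in the authors' deposited table. Its mean normalized counts, which show the depth, run from 2.32 for tRNA-Leu2 to 984449 for mt-co1.

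Nuclear genes that act on the mitochondrial chromosome were called in both directions with TPM as deposited. The medians of the nuclear lists below stand beside a median log2 fold change of 0.22 over all tested genes. Of 16 tested genes of mitochondrial transcription and replication, 3 were lower and 3 higher in the −/− pools, with a median log2 fold change of −0.13. The regulator gene mterf4 fell to 3.79 ± 0.523 TPM in the −/− pools, against 6.68 ± 0.538 TPM in the +/+ pools, and tefm, the transcription elongation factor, to 2.34 ± 0.203 (−/−) against 3.76 ± 0.398 TPM (+/+). The polymerase gene polrmt rose to 6.39 ± 0.385 TPM (−/−) against 4.68 ± 0.471 TPM (+/+), and the replicative helicase gene twnk to 5.58 ± 0.786 (−/−) against 3.25 ± 0.653 TPM (+/+) (mean ± SD of 3 pools each; adjusted p between 0.0118 and 0.032 by limma). Of 31 tested genes of RNA processing and stability, 2 were lower and 2 higher, with a median of 0.09. The 2 that rose were trmt10c, a subunit of mitochondrial RNase P, at 8.45 ± 1.41 (−/−) against 5.40 ± 0.382 TPM (+/+), and elac2, the 3′ end nuclease, at 7.68 ± 0.436 (−/−) against 5.53 ± 0.688 TPM (+/+) (mean ± SD of 3 pools each; adjusted p = 0.0207 and 0.0284 by limma). No other tested gene of this list was called higher. After median-ratio scaling 1 gene of the list was called higher, so at most 1 of trmt10c and elac2 kept its call. Calls in the list came to 6.45% lower and 6.45% higher, beside 8.76% and 30.8% of all tested genes. The RNA-binding protein gene grsf1 and the exonuclease gene REXO2 fell, with ratios of 0.786 and 0.792.

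Of 75 tested mitochondrial ribosomal protein genes 9 were lower and 6 higher, with a median of −0.11, and with median-ratio scaling 34 were lower and 1 higher. Nuclear subunits of the respiratory chain and ATP synthase gave 9 lower and 17 higher of 92 (median −0.06), or 30 and 6 after rescaling. For complex I these counts were 5 lower and 3 higher of 39, and for complex II 1 and 3 of 5. They were 1 lower and 3 higher of 9 for complex III, 1 and 4 of 21 for complex IV, and 1 and 4 of 18 for complex V. Among named members, ndufb2 of complex I fell to 104 ± 10.53 TPM in the −/− pools, against 163 ± 14.4 TPM in the +/+ pools, while uqcrc2a of complex III rose to 215 ± 9.06 (−/−) against 147 ± 13.1 TPM (+/+) (mean ± SD of 3 pools each; adjusted p = 0.00906 and 0.00859 by limma). Of 27 genes of general mitochondrial content 3 were lower and 6 higher (median 0.21). The ADP/ATP carrier gene slc25a4 fell to 368 ± 25.1 TPM (−/−) against 536 ± 29.4 TPM (+/+), and the outer membrane channel gene vdac1 rose to 264 ± 24.6 (−/−) against 184 ± 17.4 TPM (+/+) (mean ± SD of 3 pools each; adjusted p = 0.00756 and 0.0131 by limma). Of 15 regulators of mitochondrial biogenesis 7 were higher and 0 lower (median 0.37). Among them the coactivator gene ppargc1a stood at 7.85 ± 2.38 (−/−) against 3.71 ± 0.343 TPM (+/+) (mean ± SD of 3 pools each, adjusted p = 0.015 by limma). These counts stand beside the 8.76% of all tested genes called lower and the 30.8% called higher. After median-ratio scaling 22.4% of all tested genes were called lower and 22% higher. The transcription and replication list gave 9 lower and 2 higher, RNA processing 7 and 1, content 7 and 5, and biogenesis 0 and 4. In the same order their medians were −0.36, −0.13, −0.03 and 0.15, beside 0.00 over all tested genes. With the replicate block RNA processing gave 3 lower and 8 higher, content 3 and 11, biogenesis 0 and 12, ribosomal proteins 21 and 13, and respiratory subunits 21 and 19, beside 13.3% lower and 45.6% higher over all tested genes. Without +/+ pool 1 or without +/+ pool 2 limma called 0 genes of the first 2 lists and of biogenesis, 1 ribosomal protein gene, 4 or 2 content genes and 2 or 1 respiratory subunit genes.

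Markers of 9 tissues were read for the makeup of the larvae, and all 50 matched genes of these lists reached 1 TPM in every library. The calls below stand beside 8.76% of all tested genes lower and 30.8% higher. Summed TPM of 8 skeletal muscle genes was 28634 to 31972 in the −/− pools and 25826 to 29012 in the +/+ pools, with 4 higher and 0 lower. For 7 heart genes the sums were 147 to 162.3 TPM (−/−) against 162.5 to 168 TPM (+/+), and 1 was lower. The median log2 fold change of these 7 was 0.05, which is above 0 but below the 0.22 of all tested genes. For 6 ionocyte genes they were 127 to 135 TPM (−/−) against 130.0 to 155 TPM (+/+), with 2 lower. The 7 epidermal genes summed to 16248 to 16633 TPM (−/−) against 19631 to 21792 TPM (+/+, 4 lower), and the 7 neuronal genes to 551 to 759.8 TPM (−/−) against 364 to 475 TPM (+/+, 6 higher). Sums for the 4 liver genes were 8977 to 11960 TPM (−/−) against 11207 to 12551 TPM (+/+), with 2 lower and 1 higher. The 4 erythroid genes summed to 1856 to 2159 TPM (−/−) against 2199.6 to 3321 TPM (+/+), with 1 lower. The 3 intestinal genes summed to 1206 to 1387 TPM (−/−) against 1249.7 to 1285 TPM (+/+), with 1 lower and 1 higher, and the 4 exocrine pancreas genes to 3823 to 5498 TPM (−/−) against 2376 to 3351 TPM (+/+), with 2 higher. The part of such differences in the mitochondrial values was not tested.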

How the data were processed

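Polyadenylated RNA from whole larvae was sequenced as paired reads of 75 bases with a stranded kit, per the labels' protocols. Each library has a gene table of coverage, FPKM and TPM in the layout of StringTie, per the file headers. Deposited coverage is the mean signal over the bases of a gene. Deposited FPKM corrects it for depth, and deposited TPM adds up to 1000000 in each library. STAR 2.5.3a, StringTie 1.3.3b and DESeq2 1.16.1 stand in the submitters' processing notes, along with builds danRer11 and hg38 and no role for any. Coordinates are those of the tables. Another deposited table gives, per the file headers, the authors' mean normalized count (a signal), log2 fold change, test score and p-values for each gene. The sources used here do not say how reads that match nuclear copies of mitochondrial sequence were treated, so the values may include or lack such reads.

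Protein genes were named from a table of Ensembl identifiers. For rRNAs and tRNAs, names came from RefSeq genes of assembly GRCz12tu with the same start and end, which all 37 genes matched. For all 13 protein genes both sources agreed in name. Rows of one gene were summed. No per-sample counts were at hand, so in place of a count test limma 3.58.1 (R 4.3.3, lmFit and eBayes with trend) was run on log2(TPM + 0.5) for genes that reached 1 TPM in 3 or more libraries, with Benjamini-Hochberg adjustment over all 20330. This scale understates changes of low genes. Fold changes are labelled −/− minus labelled +/+. Shares were tested with exact permutation tests over libraries (Python 3.11.15, SciPy 1.17.1). The ratio of coverage to FPKM of the mitochondrial genes, 4.64 to 5.93, was taken, once the scaling of FPKM was undone, as the aligned bases of a library.

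Groups and replicate numbers came from the labels. Deviations from group means of equally numbered libraries correlated at 0.253, 0.187 and 0.478. By a rule asking for over 0.1, the numbers were taken as pairs. No label names a shared clutch, and such correlations cannot establish pairing. Correlations of unequally numbered libraries were not set beside them, and the names of the deposited tables number the groups differently. Results that use the block or the pairs rest on this unproven pairing. Genes named were all mitochondrial genes, stim2a, stim2b and, of each nuclear list, members among the 4 with the smallest p. The members and lists were chosen with earlier results of these data known.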

Additional observations from a re-analysis of the deposited data

How the results depend on the processing

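The direction of all 14 called mitochondrial genes held under every alternative run. The number called lower (14) became 22 with median-ratio scaling and 25 with the replicate block and that rescaling, and 0 to 15 with each library left out. Pseudocounts of 0.1 and 1, no filter, FPKM, quantile scaling, no trend, the replicate block, chrM out of the denominator and, added after seeing the data, mt-atp6 out of the denominator or both libraries numbered 3 left out gave 11 to 19. Over all tested genes 1781 were called lower, 4560 with median-ratio scaling and 5919 with the block and that rescaling. The all-gene count was 300 to 1651 with a library left out and 1644 to 4229 in the runs named last. Signs turned for some uncalled genes, and the cause was not tested. For mt-co1 the log2 fold change was −0.053 with that scaling, with and without the block. For mt-rnr1 it was 0.039 without −/− pool 3, 0.0068 without +/+ pool 1 and 0.010 without both pools numbered 3, and −0.062 to 0.039 over the single libraries left out. In the same runs the ranges were −0.27 to 0.19 for tRNA-Gln (0.068 without +/+ pool 3), −0.19 to 0.056 for tRNA-Ser1 (0.025 without −/− pool 3 and 0.17 without both pools numbered 3), −0.50 to 0.055 for tRNA-His, −0.60 to 0.14 for tRNA-Thr and −0.71 to 0.15 for tRNA-Pro. With a library left out, the log2 fold change ranged over 1.06 to 1.19 for stim2a and 0.84 to 1.03 for stim2b, the log2 ratio of the mitochondrial share over −0.43 to −0.20, of the protein share over −0.43 to −0.20, of the rRNA share over −0.29 to −0.19 and of the tRNA share over −0.70 to −0.44, and the strand ratio over 0.07 to 0.26. In aligned bases the log2 ratio of the rRNA share was −0.40 in place of −0.25. Protein genes with shares apart among the 13 (1) numbered 4 in aligned bases, 4 without mt-atp6, 6 with one sign in all pairs of the replicate block, and 1 to 5 with a library left out. The paired exact test of shares gave 0.25, its smallest value.

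Calls in nuclear lists depended on scaling and block, and their lowest counts came without +/+ pool 1 or 2. For transcription and replication (6) they were 11 after rescaling, 12 with block and rescaling, and 0 to 6 with a library left out. RNA processing (4) gave 8 after rescaling, 11 with the block, 17 with both, 11 without both libraries numbered 3 and 0 to 10 with a library left out. Mitochondrial content (9) gave 14, 17 and 15 with the block, with block and rescaling, and without both libraries numbered 3, and 2 to 15 with a library left out. Biogenesis (7) gave 4 after rescaling, 12 with the block and 0 to 10 with a library left out. Ribosomal proteins (15) gave 35 after rescaling, 23 with FPKM, 23 with quantile scaling, 34 with the block, 58 with both and 1 to 22 with a library left out. Respiratory chain subunits (26) gave 13 without a filter, 13 without the trend, 40 with the block, 70 with both and 1 to 27 with a library left out. Calls over all tested genes moved too. They numbered 8046 of 20330 in the main fit, 9037 after rescaling, 11960 with the block and 11722 with both. They were 10447 without both libraries numbered 3, 8823 with FPKM, 8390 with quantile scaling and 7775 without the trend. Without a filter 6474 of 27826 were called, and with a library left out 657 to 9677 of 20330. Depth limits the tRNA genes with few aligned bases, such as tRNA-Leu2 and tRNA-Phe.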
